A study of Homo sapiens with 30 samples.

Results

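H1299 is a non-small cell lung cancer line that carries no p53, and 4 of the 30 arrays of the study measured it under severe hypoxia. They were chosen by their labels, as every H1299 array of the series. On the p53- side, p53-null cells were labelled 24 h of hypoxia or 0 h, the time of the unexposed control. On the p53+ side, cells of the same line into which p53 had been reintroduced carried the same 2 time labels. The labels do not say how p53 was put back, which promoter drives it or whether the p53+ cells are 1 clone. The array labelled p53- 24 h gives its genotype in its title and source, while its cell line field reads H1299 alone. Hypoxia meant an atmosphere with less than 0.01% oxygen in an anoxic incubator, and all cells grew as monolayers. Each of the 4 groups is 1 array with no replicate, so no H1299 value has an error of its own, and differences are given as values with no test. The p53+ pair ran opposite to the p53- pair for most of the genes that moved most, so its time labels are in doubt, and its arrays are called by their labels throughout.

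Cells that lose oxygen stabilise the HIF transcription factors, which bind short DNA elements and switch on genes of glycolysis, iron and collagen handling and survival. Near-anoxia also disturbs protein folding in the endoplasmic reticulum. The unfolded protein response then induces chaperones through ATF6 and XBP1, and phosphorylation of eIF2 favours translation of ATF4, which drives amino acid synthesis and transport genes. The tumour suppressor p53 is a transcription factor stabilised by stress, and its best known target, CDKN1A, encodes an inhibitor of cyclin-dependent kinases that slows the cell cycle.

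The promoters of 4 genes that were among the largest differences are shown because they hold the elements these pathways are known to use. Each is the 250 bases before the gene's start in RefSeq, build GRCh38.p14, on the gene's own strand. The element bound by HIF was searched as ACGTG and GCGTG on both strands. Matches on opposite strands can overlap, and they then run together in capitals. The endoplasmic reticulum stress element was searched as CCAAT and CCACG with any 9 bases between them, on both strands. Capitals mark the matches, and a match on the other strand is shown as read on the gene's strand. BNIP3 (chr10:131981924-131982173, minus strand) and P4HA1 (chr10:73096867-73097116, minus strand) are shown for the HIF element, with 6 matches and 1 match. HSPA5 (chr9:125241344-125241593, minus strand) and CRELD2 (chr22:49918384-49918633, plus strand) are shown for the stress element, with 1 match each. The HSPA5 match lies 66 to 48 bases before the start, and the CRELD2 match, on the other strand, 80 to 62 bases before it.
BNIP3: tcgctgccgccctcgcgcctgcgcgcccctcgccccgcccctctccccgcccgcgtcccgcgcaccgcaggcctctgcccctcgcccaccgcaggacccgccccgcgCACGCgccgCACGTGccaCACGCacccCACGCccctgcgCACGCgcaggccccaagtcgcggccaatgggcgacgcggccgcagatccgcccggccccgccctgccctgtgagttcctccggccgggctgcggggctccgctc
P4HA1: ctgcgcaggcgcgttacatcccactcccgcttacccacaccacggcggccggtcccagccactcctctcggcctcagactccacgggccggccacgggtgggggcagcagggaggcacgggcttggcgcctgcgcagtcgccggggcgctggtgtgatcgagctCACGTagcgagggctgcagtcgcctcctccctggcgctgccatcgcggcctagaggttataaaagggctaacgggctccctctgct
HSPA5: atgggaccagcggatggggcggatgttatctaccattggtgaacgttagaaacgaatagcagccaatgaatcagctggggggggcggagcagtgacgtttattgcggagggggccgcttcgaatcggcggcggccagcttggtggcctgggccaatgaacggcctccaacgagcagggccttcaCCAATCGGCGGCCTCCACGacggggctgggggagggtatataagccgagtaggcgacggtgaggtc
CRELD2: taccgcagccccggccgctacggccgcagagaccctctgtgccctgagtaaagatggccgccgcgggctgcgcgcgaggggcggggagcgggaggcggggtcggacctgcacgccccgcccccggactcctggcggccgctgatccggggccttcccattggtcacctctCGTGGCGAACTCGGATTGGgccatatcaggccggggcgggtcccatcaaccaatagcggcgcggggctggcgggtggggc
At least 1 HIF element lay in the promoters of 12945 of 27305 genes, 47.4%. It was present for 30 of the 34 HIF targets outside glycolysis whose symbols matched and for 22 of 25 glycolysis genes. The stress element lay in the promoters of 25 of 27305 genes, 0.0916%. Of the 18 genes of the endoplasmic reticulum chaperone list that matched, 7 held it, namely CALR, CANX, CRELD2, HSP90B1, HSPA5, PDIA6 and XBP1. A match is a stretch of letters and does not show that a factor binds there. The promoters of HSPA5 and CRELD2 were chosen after their values were seen.

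The 4 arrays were alike in depth of signal. Entries given as null made up 34.6% and 35.7% of the probe sets on the p53- arrays labelled 24 h and 0 h, and 31.4% and 30.9% on the p53+ arrays labelled 24 h and 0 h. Their gene medians lay within 0.0148 of each other on the log2 scale, against a span of 0.903 over all 30 arrays. All 4 belong to the same 18 arrays whose control entries are blank. The epithelial keratin KRT8 was bright in H1299, at 1341 to 1455. CDH1, the epithelial cadherin, was dim at 8 to 24, against 187 to 305 on the 4 HCT116 colon carcinoma arrays at 24 h and 0 h. The surfactant genes did not tell lung from colon on this array, since SFTPA1 read 323 to 349 in H1299 and 356 to 369 in HCT116. The lung lineage factor NKX2-1 was dim in both, at 43 to 58 in H1299 and 44 to 71 in HCT116. The 7 annotated leukocyte markers of a list of 9, 3 of them analysed, summed to 929 to 1011 on the 4 H1299 arrays. Among them PTPRC, the pan-leukocyte phosphatase, read 12 to 48, CD3D 13 to 32, LYZ 40 to 77 and FCER1G 59 to 89. MS4A1, CD68 and CD14 were brighter, at 295 to 339, 254 to 285 and 185 to 210 on the probe sets used. The 8 endothelial markers, 6 of them analysed, summed to 2278 to 2363. The neuroendocrine genes CHGB, GRP and INSM1 were null on all 4. Other members of that list were not, with NCAM1 at 314 to 345, UCHL1 at 321 to 453, SYP at 169 to 185 and ENO2 at 85 to 269.

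In p53-null cells, the array labelled 24 h carried more RNA of protein folding, glycolysis, amino acid supply and HIF target genes than the 0 h array, and less RNA of mitotic genes. The unit is the deposited intensity, and changes are differences of log2(intensity + 16) after each array was centred on its median, which understates the change of dim genes. Of 7614 genes, 46 were higher by 2-fold or more at 24 h, 0.604%, and 29 were lower by 2-fold or more, 0.381%. The median change over all genes was 0.02. For comparison, between replicate arrays of the renal carcinoma line RCC4, 0.276%, 1.35%, 1.5% and 1.54% of these genes differed by 2-fold or more in the 4 groups that have 2 arrays each. Over the RCC4 replicates a hypoxia change had a median SD of 0.108 across genes, with a 95th percentile of 0.263. The H1299 shares lie within that range, so a 2-fold difference of 1 gene is of a size that replicate arrays also show. Of the 46 higher genes 40 were listed on all 4 arrays and 27 belong to the gene lists, and of the 29 lower genes 6 do.

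The endoplasmic reticulum chaperone list, which also holds folding enzymes, degradation genes and XBP1, had the largest median difference of the gene lists in p53- cells. All 13 members analysed of 19 were higher at 24 h, where 56.2% of all genes were higher by any size, and 8 were past 2-fold. Their median change was 1.13. HSPA5, the main chaperone of the endoplasmic reticulum lumen, read 1186 at 24 h and 322 at 0 h, a 3.59-fold difference. HERPUD1, a membrane protein that helps to clear misfolded proteins, read 451 at 24 h and 91 at 0 h, or 4.41-fold. CRELD2, a folding factor of the endoplasmic reticulum, read 337 and 49, or 5.49-fold. All were chosen for their size, and between RCC4 replicates a hypoxia change of CRELD2 had an SD of 0.60, against 0.20 for HSPA5 and 0.19 for HERPUD1. DNAJC3, a co-chaperone that also restrains the eIF2 kinase PERK, read 350 at 24 h and 72 at 0 h. MANF, a stress protein of the endoplasmic reticulum that is also secreted, read 1001 and 387. DNAJB11 and PDIA6, a co-chaperone and a disulfide isomerase, were higher by 2.31-fold and 2.05-fold. The lectin chaperones stood lower in the order, with CALR at 1474 and 886 and CANX at 741 and 428. The smallest differences were for EDEM1 and SEL1L, which serve degradation of misfolded proteins, at 0.38 and 0.24 on the log2 scale. HSP90B2P, a pseudogene copy of the chaperone HSP90B1 whose probes may read the parent gene, read 573 at 24 h and 132 at 0 h. XBP1, the transcription factor of the response, read 313 and 158, or 1.91-fold.

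Genes driven by ATF4 were higher too, with 20 of 22 analysed members of 32 higher at 24 h, 6 of them past 2-fold, and a median of 0.59. Of all genes, 56.2% were higher by any size and 0.604% by 2-fold or more. SLC7A11, the cystine importer, which the NRF2 list also holds, read 388 at 24 h and 91 at 0 h, or 3.81-fold. TRIB3, a pseudokinase that feeds back on the response, read 89 and 11. ASNS, which makes asparagine, read 977 and 401, or 2.41-fold. The mitochondrial carboxykinase PCK2 and the serine synthesis enzyme PSAT1 were close to 2-fold, at 1.10 and 1.00 on the log2 scale. SESN2, a stress protein that restrains mTORC1 and is a target of both ATF4 and p53, read 520 at 24 h and 181 at 0 h. Its other probe set read 483 and 134. STC2, a secreted glycoprotein of the calcium and stress response, read 195 at 24 h and was null at 0 h, so no fold is given. ATF4 itself was higher by 0.52 on the log2 scale, at 679 and 475. The 2 members that were lower were CTH at -0.16 and WARS1 at -0.10. Outside the lists, MAP1LC3B, which coats autophagosomes, read 488 at 24 h and 112 at 0 h, and GOT1, the cytosolic aspartate aminotransferase, read 448 and 135. GOT1 was chosen after its values were seen.

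Among HIF targets outside glycolysis, 19 of 25 analysed of 42 were higher at 24 h, where 56.2% of all genes were, and 5 were past 2-fold, where 0.604% were. Of these 5, 2 were so through a null at 0 h, and the median of the list was 0.21. F3 and TGFA were null on all 4 H1299 arrays and count among the 19 only through the centring. Over the 21 members listed on all 4 arrays the median was also 0.21. By the brightest probe set of each gene, the list split into a few large differences and many near 0. P4HA1, the collagen prolyl hydroxylase subunit whose promoter is shown above, read 342 at 24 h and 74 at 0 h, or 4.02-fold. BNIP3, a mitochondrial protein that promotes mitophagy, read 203 at 24 h and was null at 0 h. Its relative BNIP3L read 815 and 327, or 2.45-fold. PLOD2, a collagen lysyl hydroxylase, read 72 at 24 h and was null at 0 h. NDRG1, a widely used hypoxia marker, read 314 and 146, or 2.06-fold. HILPDA, a lipid droplet protein, and ADM, a vasodilator peptide, stayed under 2-fold at 1.90-fold and 1.72-fold. Others of the list lay near 0 or below it, with ANGPTL4 at 0.13, TFRC at -0.04, EDN1 at -0.25 and IGFBP3 at -0.31 on the log2 scale. The choice of probe set mattered for some. Another TFRC probe set read 269 at 24 h and 517 at 0 h. ERO1A read 414 and 340 on the probe set used, and 494 and 193 and 218 and 61 on its others. VEGFA, the angiogenic growth factor, was null on both p53- arrays, and EGLN3 was null on all 4 H1299 arrays. UFSP2, a peptidase of the UFM1 pathway, read 258 at 24 h and 35 at 0 h. In RefSeq its span overlaps ANKRD37 and CFAP96, and which of these transcripts the probes read was not tested.

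Glycolysis moved as a block, with 17 of 18 analysed of 26 genes higher at 24 h, 6 past 2-fold and a median of 0.59. The shares over all genes were 56.2% higher by any size and 0.604% past 2-fold. ENO2, an enolase, read 243 at 24 h and 95 at 0 h, or 2.36-fold. PDK1, which shuts pyruvate out of the mitochondrion, read 192 and 75, or 2.31-fold. SLC2A3, a glucose transporter, read 744 and 324, or 2.26-fold. PFKFB4 and HK1, a regulator of glycolytic flux and the first enzyme of the path, were higher by 2.24-fold and 2.15-fold, and the glycogen synthase GYS1 by 2.08-fold. The abundant enzymes differed less, as LDHA with 1770 at 24 h and 1121 at 0 h and PGK1 with 1654 and 1054. GAPDH read the highest value of each array, 4117 at 24 h and 3839 at 0 h, so no difference is read from it. Another GAPDH probe set read that same 4117 at 24 h and 2701 at 0 h. PFKM alone was lower, at -0.06.

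Genes of the G2 phase and mitosis were lower at 24 h in all 15 analysed members of 33, where 43.8% of all genes were lower by any size, and 5 were past 2-fold. Their median change was -0.80. KIF20A, a kinesin of cytokinesis, read 53 at 24 h and 364 at 0 h and was 5.45 times lower. CCNB1, the mitotic cyclin, read 107 and 345, and PLK1, the mitotic kinase, read 106 and 303. They were 2.90 and 2.59 times lower. TOP2A, the topoisomerase that untangles chromosomes, read 143 at 24 h and 372 at 0 h, or 2.42 times lower. Members too dim to be analysed included AURKA, another mitotic kinase, at 4 and 118, and CENPA, the centromeric histone, at 27 and 132. The S phase list was lower in 13 of 15 analysed genes of 30 with a median of -0.31, and none was past 2-fold. FEN1, a nuclease of lagging strand synthesis, read 179 and 334, and PCNA, the replication clamp, read 236 and 311. In bulk RNA, fewer cells in a phase and less RNA per cell cannot be told apart. Outside these lists ANLN, a cytokinesis scaffold, read 21 at 24 h and 132 at 0 h. TIMP2, a metalloproteinase inhibitor, read 68 and 185. ID2B, a pseudogene copy of ID2 whose probes may read the parent gene, read 21 and 145. ID2 and ID3 encode inhibitors of differentiation factors, and ID2 read 315 at 24 h and 418 at 0 h, while ID3 read 471 and 1056. ID2 was chosen after its values were seen. HIF1A, also chosen after its values were seen, read 267 at 24 h and 388 at 0 h.

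The other lists lay close to the centre in p53- cells. The medians were -0.12 for heat shock genes, 0.14 for immediate early genes, 0.03 for NF-kB and inflammation, 0.04 for interferon response and for matrix genes, and 0.01 for NRF2 targets. They were -0.01 for lipid and cholesterol synthesis, -0.02 for respiratory chain subunits, -0.06 for ribosome biogenesis and -0.04 for splicing factors and for metallothioneins. Within the inflammation list, ICAM1, the leukocyte adhesion molecule, read 328 at 24 h and 147 at 0 h in p53- cells, and 152 and 321 at these labels in p53+ cells.

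**Figure D1:**
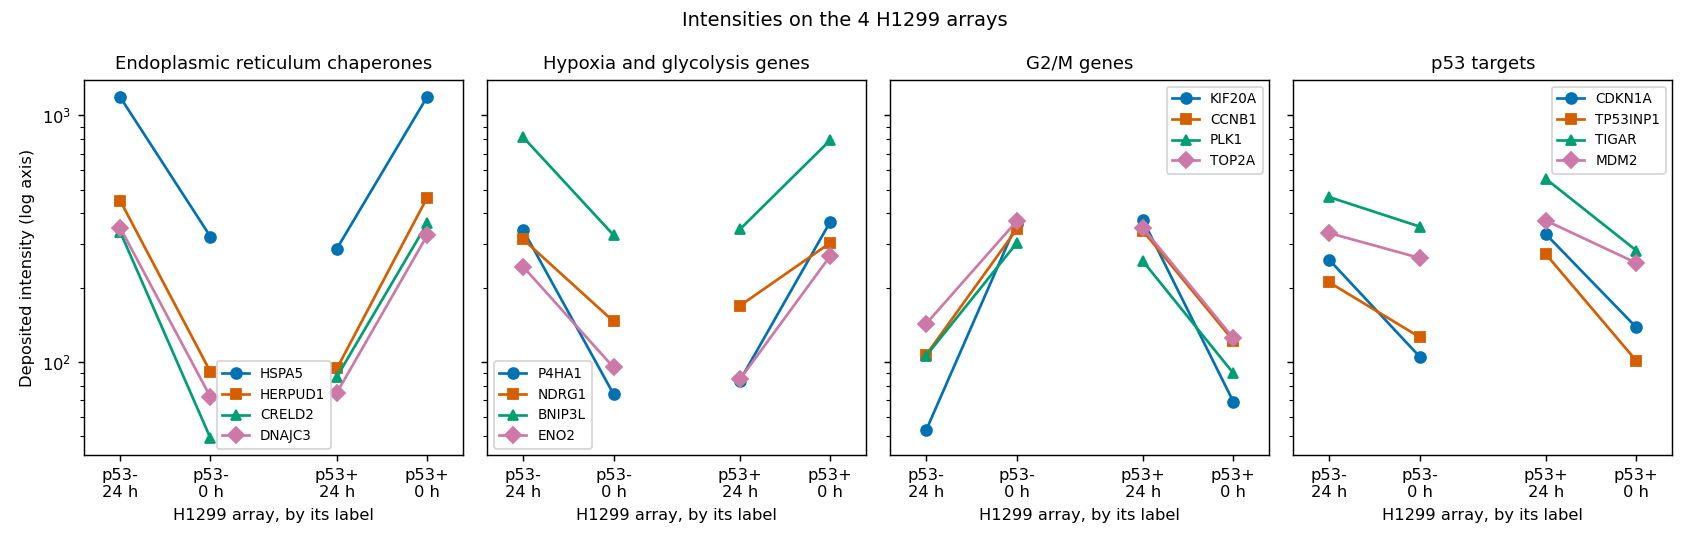
Deposited intensity on a log axis for 16 genes on the 4 H1299 arrays, each point being 1 array and lines joining the 2 arrays of a genotype. HSPA5, P4HA1 and their neighbours are high on the p53- array labelled 24 h and the p53+ array labelled 0 h. KIF20A and other G2/M genes are low on both of those. The 4 p53 targets drawn, those with the widest gap between the labels, are higher on the array labelled 24 h in each pair.

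In p53+ cells the same genes took the opposite order, with the folding, ATF4, HIF target and glycolysis genes higher on the array labelled 0 h and the mitotic genes higher on the array labelled 24 h. Of 7614 genes, 30 were higher by 2-fold or more on the array labelled 24 h, 0.394%, and 40 were lower by 2-fold or more, 0.525%. The median over all genes was 0.00. HSPA5 read 288 on the array labelled 24 h and 1190 on the array labelled 0 h, and HERPUD1 read 94 and 464. CRELD2 read 87 and 365. For each of these genes the p53+ array labelled 0 h read close to the p53- array labelled 24 h. All 13 analysed members of the endoplasmic reticulum chaperone list were lower at the 24 h label, where 49.1% of all genes were. Of these, 7 were past 2-fold, and the median was -1.07. SLC7A11 read 77 at the 24 h label and 418 at the 0 h label, TRIB3 read 8 and 87, and STC2 was null and 257. ASNS read 395 and 915. The ATF4 list had a median of -0.60, or -0.56 over the 21 members listed on all 4 arrays, with 6 genes past 2-fold lower and none past 2-fold higher.

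HIF targets and glycolysis followed the same order in p53+ cells. P4HA1 read 84 at the 24 h label and 370 at the 0 h label, BNIP3 read 5 and 200, and PLOD2 read 18 and 122. BNIP3L read 345 and 794. The median of HIF targets outside glycolysis was -0.24, with 19 of 25 lower at the 24 h label and 5 of them past 2-fold. PDK1 read 66 at the 24 h label and 267 at the 0 h label, ENO2 read 85 and 269, and HK1 read 189 and 462. Glycolysis had a median of -0.60, with 17 of 18 genes lower and 5 past 2-fold, against the same shares of all genes. UFSP2 read 35 and 339 and MAP1LC3B read 115 and 555.

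The cell cycle genes were higher at the 24 h label of the p53+ pair. KIF20A read 376 at the 24 h label and 69 at the 0 h label, and CCNB1 read 340 and 122. TOP2A read 349 and 125. All 15 G2/M genes were higher at the 24 h label, 5 of them past 2-fold, with a median of 0.76. All 15 S phase genes were higher with a median of 0.23. Of all genes, 50.9% were higher at that label by any size and 0.394% by 2-fold or more. The dim AURKA read 105 and 19. ID2B read 183 and 21, and ID3 read 1066 and 417.

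The remaining lists stayed near the centre in p53+ cells as well. Heat shock genes had a median of 0.12, in the opposite direction to p53- cells. HSPE1, the mitochondrial co-chaperonin, read 453 at the 24 h label and 271 at the 0 h label in p53+ cells, and 263 and 410 in p53- cells. HSPH1, a cytosolic chaperone, read 515 and 330 in p53+ cells, and 330 and 503 in p53- cells. HSP90AA1, a cytosolic chaperone too, read 1673 and 1556 in p53+ cells, and 1531 and 1532 in p53- cells. Splicing factors had a median of 0.12 in p53+ cells, respiratory chain subunits 0.06 and immediate early genes -0.06. The medians of the NF-kB, interferon, lipid, ribosome biogenesis, matrix, NRF2 and metallothionein lists lay between -0.04 and 0.03.

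Over all genes, 45 genes passed 2-fold in opposite directions in the 2 pairs, 0.591% of 7614, and 2 passed it in the same direction, 0.0263%. Of the 45, 31 were higher in the p53- pair and lower in the p53+ pair, 0.407% of all genes, and 14 were the reverse, 0.184%. By any size, 61.8% of genes had opposite signs. The correlation of the 2 changes across the 7614 genes was -0.61 by Pearson and -0.38 by Spearman, a description over genes that share the same 4 arrays and are not independent. Of the 46 genes higher by 2-fold or more in p53- cells, 41 were negative in the p53+ pair, where 49.1% of all genes were. Past 2-fold lower there were 31 of the 46, against 0.525% of all genes. The 5 positive ones include GDF15, a stress cytokine, at 362 on the p53+ array labelled 24 h and 243 on the p53+ array labelled 0 h, and at 684 and 113 on the p53- arrays labelled 24 h and 0 h. The 29 genes lower by 2-fold or more in p53- cells were positive in the p53+ pair in 27 cases, 14 of them past 2-fold. Of all genes, 50.9% were positive there and 0.394% were higher by 2-fold or more.

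Over whole arrays, the p53+ array labelled 0 h was closest to the p53- array labelled 24 h, with a correlation of 0.987 across genes and 12 genes apart by 2-fold or more. The p53+ array labelled 24 h was closest to the p53- array labelled 0 h, at 0.981 with 33 genes apart. Between genotypes at matching labels it was 0.968 with 85 genes at 24 h and 0.962 with 96 genes at 0 h. Within a genotype, the arrays labelled 24 h and 0 h correlated at 0.966 in p53- cells and 0.971 in p53+ cells. These correlations share arrays and are given as a description.

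**Figure D2:**
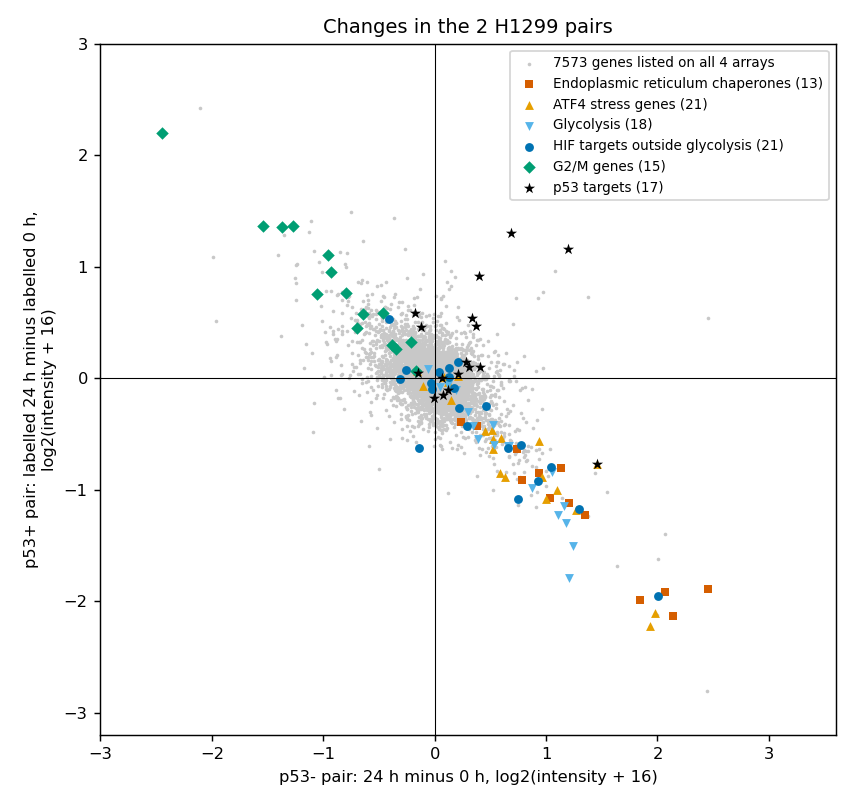
Change in the p53+ pair (vertical axis, labelled 24 h minus labelled 0 h) against change in the p53- pair (horizontal axis, 24 h minus 0 h), both as differences of log2(intensity + 16), for the 7573 genes listed on all 4 arrays. Chaperone, ATF4, glycolysis and HIF target genes run to the lower right and G2/M genes to the upper left, while CDKN1A, TP53INP1 and TIGAR lie at the upper right.

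The p53 targets were divided, though the medians of the list had the same sign in both pairs. Of 32 listed, 17 were analysed, 13 of which were higher at 24 h in the p53- pair and 12 at the 24 h label in the p53+ pair, against 56.2% and 50.9% of all genes. The medians were 0.28 and 0.10, and between RCC4 replicates the median hypoxia change of this list had an SD of 0.13. The 2 changes had opposite signs for 7 of the 17, where 61.8% of all genes had them. Both arrays labelled 24 h lay above both arrays labelled 0 h for 8 of the 17, where 14% of all genes did so, and below them for 1, where 7.99% did so. SESN2, which the ATF4 list also holds, took the opposite course, at 274 on the p53+ array labelled 24 h and 477 on the p53+ array labelled 0 h.

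CDKN1A, the kinase inhibitor, was 1 of the 2 genes past 2-fold in the same direction. It read 259 on the p53- array labelled 24 h and 105 on the p53- array labelled 0 h, and 329 and 138 on the p53+ arrays labelled 24 h and 0 h. The changes were 1.20 in p53- cells and 1.16 in p53+ cells. With a pseudocount of 64 they were 0.95 and 0.96, both under 2-fold, and no gene passed 2-fold in the same direction. The other gene, BLOC1S2, a subunit of a lysosome biogenesis complex, was dim, at 26 and null in p53- cells and 58 and 12 in p53+ cells. TP53INP1, a stress protein of autophagy and cell death, read 210 and 126 in the p53- pair and 273 and 101 in the p53+ pair. TIGAR, a fructose bisphosphatase that slows glycolysis, read 466 and 354 in the p53- pair and 552 and 283 in the p53+ pair. For both genes the difference was the larger in the p53+ pair, 1.30 against 0.69 for TP53INP1 and 0.92 against 0.40 for TIGAR. MDM2, the ubiquitin ligase that degrades p53, read 333 and 264 in p53- cells and 374 and 252 in p53+ cells. Another MDM2 probe set read 86 and 37 in p53- cells and 174 and 39 in p53+ cells, a larger difference in p53+ cells than that of the probe set used. The remaining MDM2 probe sets read 54 or less or were null. TP53I3, a quinone oxidoreductase, read 411 and 318 in the p53- pair and 537 and 381 in the p53+ pair.

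For other p53 targets the differences were smaller or the pairs disagreed. BBC3, a killer protein of the BCL2 family, read 570 and 462 in the p53- pair and 526 and 487 in the p53+ pair. EI24 read 380 at the 24 h label and 247 at the 0 h label in p53+ cells, and 301 and 347 in p53- cells. DDB2, which recognises ultraviolet damage, was dim, at 51 to 72 on the 4 arrays. PMAIP1 and PPM1D were null on all 4. Some genes outside the list, chosen after their values were seen, were also higher at both 24 h labels. ACTA2, smooth muscle actin, read 135 and 76 in the p53- pair and 143 and 80 in the p53+ pair. APAF1, the apoptosome scaffold, read 67 and 28 in the p53- pair and 98 and 53 in the p53+ pair. RRAD, a small GTPase, read 207 and 99 in the p53- pair and 171 and 93 in the p53+ pair.

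**Figure D3:**
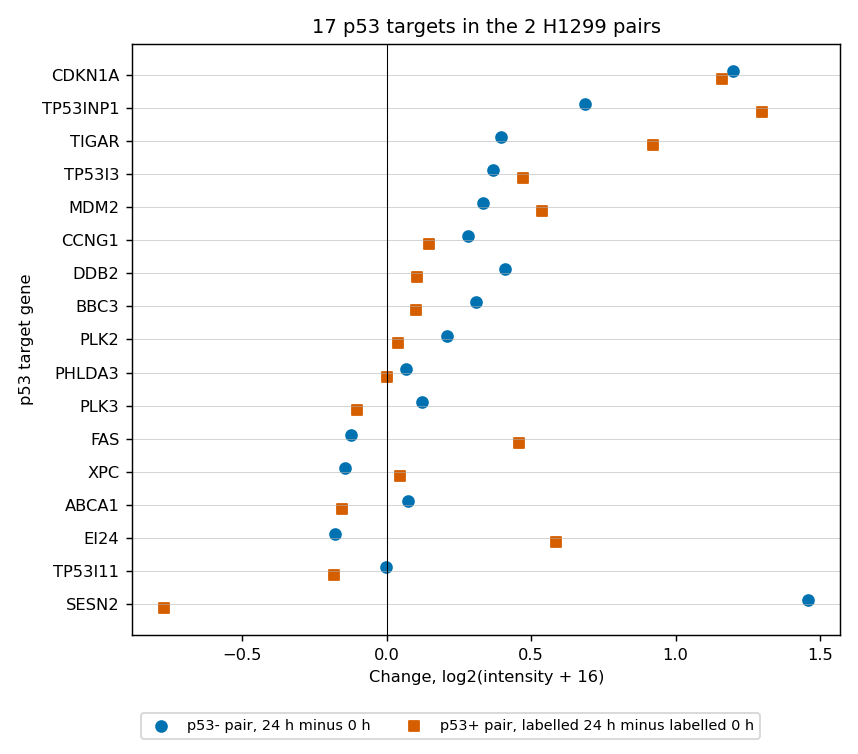
Change of each of 17 p53 targets in the p53- pair (circles, 24 h minus 0 h) and the p53+ pair (squares, labelled 24 h minus labelled 0 h), on the scale of log2(intensity + 16). CDKN1A lies at 1.20 and 1.16, and SESN2 at 1.46 and -0.77.

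The hypoxia, chaperone, ATF4 and mitotic genes place the p53- array labelled 24 h beside the p53+ array labelled 0 h. CDKN1A, TP53INP1, TIGAR and MDM2 were instead higher on both arrays labelled 24 h. They are named for that order, as the p53 targets with the widest gap between the labels. Of the 17 p53 targets analysed, 8 took that order and 7 had changes of opposite sign in the 2 pairs. These counts rest on the probe set used for each gene, and for FAS another probe set took a different order. With 1 array per group, the labels and the response of the cells cannot be told apart as the origin of these 2 orders.

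Between genotypes, few genes separated both p53+ arrays from both p53- arrays. Both p53+ arrays lay above both p53- arrays for 16.3% of genes and below them for 18.2%, and past 2-fold there was 1 gene above, 0.0131%, and 0 below. That gene, APP, was dim, at 22 and 27 on the p53+ arrays labelled 24 h and 0 h and null on both p53- arrays, so the count rests on null entries. The p53 targets had a median p53+ minus p53- difference of 0.02 at the 24 h label and 0.07 at the 0 h label. These 2 medians rest on the time labels of the p53+ pair, which are in doubt. LTN1, a ubiquitin ligase of stalled ribosomes, read 64 and 124 on the p53+ arrays labelled 24 h and 0 h, and 191 and 279 on the p53- arrays. XAGE2, a cancer-testis antigen, read 260 and 206 on the p53+ arrays and 294 and 597 on the p53- arrays. HEY1, a Notch target repressor, read 330 and 291 on the p53+ arrays and 440 and 703 on the p53- arrays. In each of these the p53- array labelled 0 h was the highest of the 4. The HCT116 p53- array at 0 h was likewise the highest HCT116 array at 24 h or 0 h, with 357 for LTN1, 768 for XAGE2 and 933 for HEY1. The 8 genes named for the largest excess in p53+ cells were dim, as MRPL53, a mitochondrial ribosomal protein, at 99 and 69 on the p53+ arrays and 25 and 39 on the p53- arrays.

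The HCT116 colon carcinoma arrays at 24 h and 0 h, also 1 per group, were read beside the H1299 pairs. There 0.67% of genes were higher by 2-fold or more and 1.81% lower in p53- cells, and 0.801% and 1.31% in p53+ cells. Of the 46 genes higher by 2-fold or more in H1299 p53- cells, 35 were higher in HCT116 p53- cells, where 56.7% of all genes were, and 34 in HCT116 p53+ cells, where 57.4% were. Of these, 16 were past 2-fold in each. Endoplasmic reticulum chaperones had medians of 0.70 and 0.62 in HCT116 p53- and p53+ cells and glycolysis had 1.02 in both, the sign of the H1299 p53- pair. G2/M genes had -0.48 and -0.95. Across genes the H1299 p53- change correlated with the HCT116 changes at 0.39 for p53- and 0.32 for p53+ cells, and the H1299 p53+ change at -0.24 and -0.23. With the change at 18 h in the 2 replicates of RCC4 cells with VHL put back, the H1299 p53- change correlated at 0.36 and 0.32 and the H1299 p53+ change at -0.34 and -0.31. With those of VHL-null RCC4 cells it was 0.17 and 0.23 for the H1299 p53- change, and -0.03 and -0.13 for the H1299 p53+ change, whose Spearman value with replicate 1 was 0.06.

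The medians of ATF4 genes had opposite signs in H1299 p53- cells and HCT116 cells, a difference that was not tested. They were 0.59 in H1299 p53- cells and -0.09 and -0.19 in HCT116 p53- and p53+ cells. The heat shock median was -0.12 in H1299 p53- cells and 0.17 in both HCT116 genotypes, and that of respiratory chain subunits was -0.02 in H1299 p53- cells and 0.11 and 0.16 in HCT116 p53- and p53+ cells. In the 2 replicates of RCC4 cells with VHL put back, the 18 h medians of ATF4 genes were 0.31 and 0.50. Those of heat shock genes were -0.24 and -0.36 there, and those of respiratory chain subunits -0.14 and 0.0025. ASNS, at 977 and 401 in H1299 p53- cells, read 728 at 24 h and 965 at 0 h in HCT116 p53- cells and 686 and 1156 in HCT116 p53+ cells. PCK2 read 178 at 24 h and 341 at 0 h in HCT116 p53- cells and 199 and 336 in HCT116 p53+ cells. CDKN1A also differed, reading 227 at 24 h and 212 at 0 h in HCT116 p53- cells and 229 and 313 in HCT116 p53+ cells. HSPA5 read 1129 at 24 h and 825 at 0 h in HCT116 p53- cells and 1207 and 1054 in HCT116 p53+ cells, with 0 h values above those of the H1299 p53- array labelled 0 h.

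**Figure D4:**
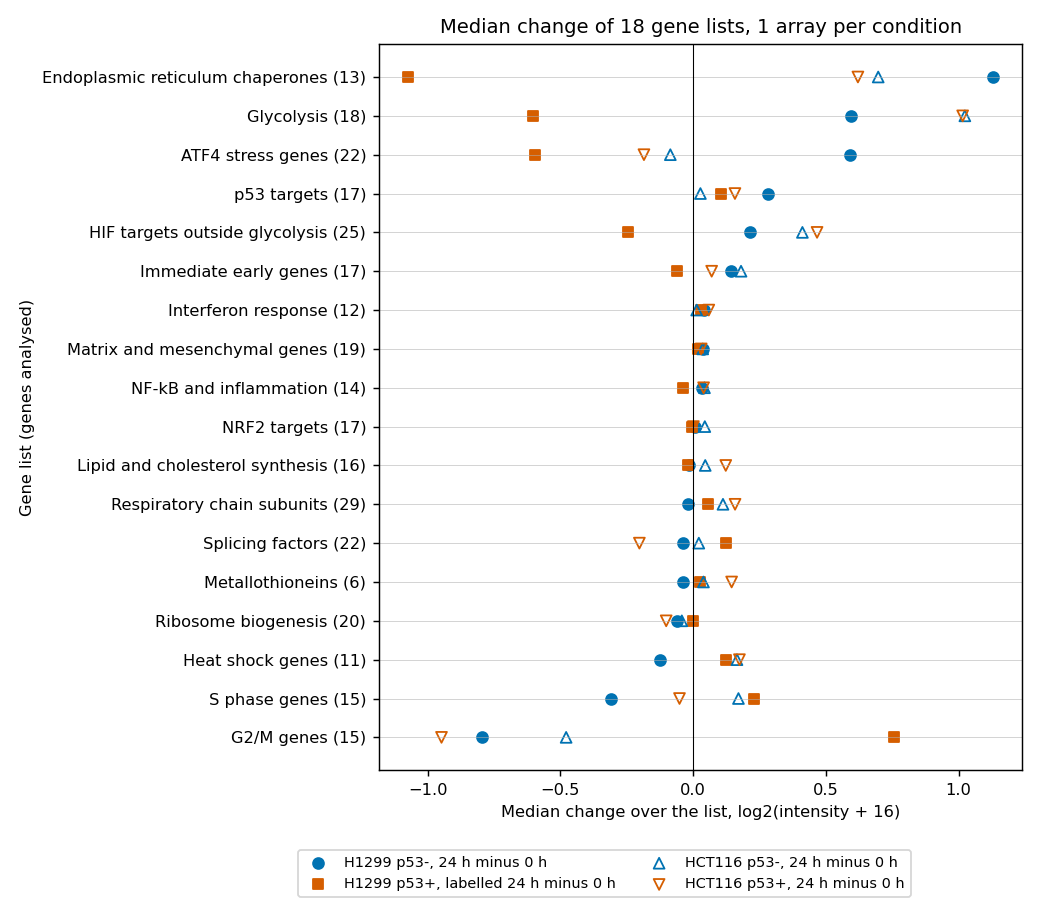
Median change of 18 gene lists on the scale of log2(intensity + 16), for both H1299 pairs (filled) and both HCT116 pairs (open), with the number of genes analysed in brackets. The H1299 p53+ pair (filled squares) lies on the other side of 0 from the H1299 p53- pair (filled circles) for chaperones at -1.07 and 1.13 and for G2/M genes at 0.76 and -0.80.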

How the data were processed

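The authors deposited whole-number linear intensity values for 35356 probe sets of a custom Affymetrix array, as the deposited value table shows. Their scaling, the meaning of a null entry and the scanner settings are not given in the sources used here. Null was taken as 0. Probe sets were named through the platform annotation supplied with the data, in which 16905 probe sets carried 1 symbol, 573 several and 17878 none. The brightest probe set stood for each of 12690 genes, and the 7614 in the upper 60% by mean over the 30 arrays were analysed. Values were taken as log2(intensity + 16) of the deposited intensities, and each array was centred on its median with Python 3.11.15, pandas 2.3.3 and numpy 2.4.6. Fold differences between deposited arrays were computed on that scale, and no fold was given against a null entry.

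Every H1299 group is 1 array, so there was no test, and the number of arrays limits the precision. RCC4 replicates of 1 group served to show a replicate spread, and their changes at 18 h were correlated with the H1299 changes across genes. The submitters call these replicates independent. A gene was counted when it differed by 2-fold or more. The calculation was tested on simulated data with changes planted only in brighter genes, so that test does not cover dim genes or null entries. Named genes are, per pair, the 12 largest differences each way, up to 5 listed on 1 array and null on the other, up to 4 per list, the 10 most opposed and 10 most alike genes, the 8 genes most apart each way between genotypes, and any HIF, glycolysis or p53 target. The members, the 25 gene lists and these rules were chosen with earlier results of these data known. Promoters came from RefSeq GRCh38.p14. Alternatives were another pseudocount, quantile or no centring, other filters, the mean over probe sets and other folds.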

Additional observations from a re-analysis of the deposited data

Results flagged for a closer look

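For 7 gene lists and 7 genes the arrays of the 2 H1299 pairs moved in opposite directions by label, and the difference between the pairs was not tested. The median change of the list in the p53+ pair minus that in the p53- pair was -2.20 for endoplasmic reticulum chaperones, -1.20 for glycolysis, -1.19 for ATF4 stress genes and -0.46 for HIF targets outside glycolysis. It was 1.56 for G2/M genes, 0.54 for S phase genes and 0.25 for heat shock genes, all on the log2 scale. Among single genes listed on all 4 arrays, the p53+ change minus the p53- change was -5.24 for UFSP2, -4.27 for HERPUD1, -4.12 for MAP1LC3B, -4.08 for TRIB3 and -3.96 for P4HA1. It was 4.65 for KIF20A and 4.53 for ID2B.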

How the results depend on the processing

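No paired analysis was possible because each H1299 group is 1 array and no test was run. Counts are given in the order p53- pair higher and lower at 24 h, then p53+ pair higher and lower at the 24 h label, then opposite directions, same direction and p53+ above p53-. With a pseudocount of 64 they were 22, 11, 7, 22, 24, 0 and 0, and the p53- medians of ATF4 genes and interferon genes were 0.48 and 0.017. A pseudocount of 4 gave 51 lower genes in the p53- pair and 6 with p53+ above p53-. Without a filter on low values the first 4 counts were 127, 81, 68 and 79, p53+ above p53- held for 11, the correlation of the changes was -0.45, the p53+ median of HIF targets was -0.094, the p53- medians of glycolysis and interferon genes were 0.53 and 0.015, and the p53+ median of interferon genes changed sign to -0.0049. In the upper 40% of genes, 12 were lower in the p53- pair, 11 higher and 25 lower in the p53+ pair, 29 opposite, 1 the same and 0 with p53+ above p53-, the p53- median of immediate early genes was 0.054, and that of ribosome biogenesis changed sign to 0.036. Over genes listed on all 4 arrays, 1 moved the same way and 0 had p53+ above p53-. Quantile normalization gave 3 with p53+ above p53-, a p53+ glycolysis median of -0.52, heat shock medians of 0.21 in p53+ and -0.16 in p53- cells and a p53- interferon median of 0.020. The mean over probe sets gave 3 with p53+ above p53- and a p53- glycolysis median of 0.50. A 1.5-fold threshold gave 160, 159, 121, 122, 150, 9 and 9, and a 3-fold threshold 17, 4, 3, 15, 16, 0 and 0. With genes and probe sets chosen on the 28 arrays without the p53+ pair, an alternative chosen after seeing the data, 47 genes were higher and 31 lower in the p53- pair. The correlation of the 2 changes stayed between -0.69 and -0.45 over 8 alternatives. Except for the 2 medians that changed sign, no list median turned round under the alternatives run. Dim genes, null entries and the absence of H1299 replicates limit these counts, and the cause of each shift was not tested.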
